A study of Mus musculus with 28 samples.

Results

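The unfolded protein and ATF4 stress response was followed in an epididymal epithelial line as 35 genes, picked by symbol and read in every library. All 35 were among the 13128 genes of the table, and a filter on low values (log2 CPM above 0 in at least 4 libraries) removed none of them and 0 genes in all. They fall into 18 genes of the ATF6 and XBP1 chaperone arm (14 folding factors and 4 genes of endoplasmic reticulum associated degradation), 4 sensors and signal relays, and 13 genes of the ATF4 arm (7 regulators and 6 amino acid and one-carbon enzymes).

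The endoplasmic reticulum folds secreted and membrane proteins, and secretory epithelia such as that of the epididymis depend on it. When unfolded proteins build up, the sensors IRE1 (gene Ern1), ATF6 and PERK (gene Eif2ak3) respond. IRE1 splices the Xbp1 message, and XBP1 and cleaved ATF6 turn on chaperone and degradation genes. PERK phosphorylates eIF2alpha, which slows translation and raises ATF4 protein. ATF4 in turn drives genes of amino acid synthesis, redox balance and cell death, and other kinases that sense amino acid shortage, heme or viral RNA reach ATF4 without any signal from the endoplasmic reticulum. ATF4 protein, eIF2alpha phosphorylation and Xbp1 splicing were not measured, since the table holds gene-level RNA.

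Strand-specific mRNA libraries were made from DC2, a mouse epididymal epithelial line immortalized from cells of the distal caput and grown to confluence on collagen. Corticosterone, the main glucocorticoid of rodents, was given at 500 ng/ml in ethanol, and the ethanol vehicle at 0.1%. The 7 groups of 4 libraries each were vehicle at day 0, taken before any treatment, and corticosterone and vehicle at day 3 (end of treatment), day 6 (3 days of recovery) and day 9 (6 days of recovery), with the medium replaced at days 3 and 6. All groups are 1 cell line, separate cultures are not stated for the replicates, and p-values therefore measure only the spread between these libraries.

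Values are the authors' normalized log2 CPM, and read depth is not given by the files. Of markers of other cells, 0 of 6 leukocyte, 2 of 4 endothelial and 4 of 7 fibroblast genes were in the table. Of epithelial genes 7 of 8 were, and of epididymal epithelium 3 of 8, Pax2, Pax8 and Defb1. At day 3 the 7 epithelial genes summed to 62.0 to 83.5 CPM in corticosterone libraries and 75.5 to 77.5 CPM in vehicle libraries. The 3 epididymal genes summed to 168 to 217 CPM in corticosterone libraries and 204 to 220 CPM in vehicle libraries at day 3. At day 6 the epididymal sums were 236 to 244 CPM in corticosterone libraries and 206 to 228 CPM in vehicle libraries. At day 9 they were 216 to 236 CPM in corticosterone libraries and 170 to 198 CPM in vehicle libraries, without overlap at either day. The summed level of the 2 endothelial genes was 7.15 to 9.71 CPM in corticosterone libraries and 1.43 to 2.60 CPM in vehicle libraries at day 3, and that of the 4 fibroblast genes measured was 113 to 134 CPM in corticosterone libraries and 60.7 to 65.1 CPM in vehicle libraries. Their part in the results was not tested. At day 6 the endothelial sums were 5.82 to 12.5 CPM in corticosterone libraries and 1.69 to 2.24 CPM in vehicle libraries, while the fibroblast sums were 67.9 to 74.8 CPM in corticosterone libraries and 69.0 to 73.4 CPM in vehicle libraries. In RNA of whole cultures, fewer cells of a type and less RNA per cell cannot be told apart. One library stood apart: corticosterone day 3 replicate 4 lay at a median root mean square log2 difference of 0.565 from the other libraries of its group, against 0.425 to 0.426 for those 3, so the day 3 results are also given without it.

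The promoters of some of these genes hold known stress elements. RefSeq promoters of build GRCm38.p6, 250 bases before to 50 after each annotated start, were found for 32 of the 35 genes, and both strands were searched. The endoplasmic reticulum stress response element, CCAAT followed after 9 bases by CCACG, was found in 39 of 32851 promoters of that length (0.119%) and in 8 of 16 chaperone-arm genes with a promoter (Hspa5, Hsp90b1, Calr, Canx, Pdia6, Dnajc3, Creld2 and Syvn1), against 0 of 13 ATF4-arm genes. Its variant, ATTGG followed after 1 base by CCACG, was in 12 promoters (0.0365%), those of Dnajb11 and Herpud1 among them. The core TGACGTG, whose reverse strand shares the letters CACG with CCACG, was in 661 promoters (2.01%) and in Hspa5 alone of the 32 genes. The C/EBP-ATF element TGATGNAA was in 1304 promoters (3.97%), in Trib3, Chac1 and Nupr1 of the ATF4 arm and in Herpud1 of the chaperone arm. A match describes the letters in this window and is no evidence of binding.

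The promoters of 4 genes are shown, all of which hold an element and have library values below. They are Hspa5, which holds chaperone elements, Chac1 and Trib3, which hold the C/EBP-ATF element, and Herpud1, which holds one of each kind. Library values are also given for Mthfd2, Sesn2, Atf4, Ddit3, Ppp1r15a, Psat1, Xbp1, Ern1, Pdia3 and Pdia4, whose promoters held none of these elements. Capitals mark the element letters, and no element shown overlaps another. Hspa5 lies at chr2:34771840-34772139 (plus strand), with its stress response element at position -65 from the annotated start and TGACGTG at -157. Herpud1 lies at chr8:94386179-94386478 (plus strand), with ATTGG and CCACG at -52 and the C/EBP-ATF element on the reverse strand at -112. Chac1 lies at chr2:119350992-119351291 (plus strand) with its element on the reverse strand at -193, and Trib3 at chr2:152344011-152344310 (minus strand) with its element at 14, inside the transcribed part.
Hspa5: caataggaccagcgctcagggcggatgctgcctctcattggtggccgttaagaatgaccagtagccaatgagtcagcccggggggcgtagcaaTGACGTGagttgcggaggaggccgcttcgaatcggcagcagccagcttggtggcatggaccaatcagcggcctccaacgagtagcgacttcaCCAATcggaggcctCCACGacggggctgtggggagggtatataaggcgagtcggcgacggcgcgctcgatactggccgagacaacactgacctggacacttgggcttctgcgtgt
Herpud1: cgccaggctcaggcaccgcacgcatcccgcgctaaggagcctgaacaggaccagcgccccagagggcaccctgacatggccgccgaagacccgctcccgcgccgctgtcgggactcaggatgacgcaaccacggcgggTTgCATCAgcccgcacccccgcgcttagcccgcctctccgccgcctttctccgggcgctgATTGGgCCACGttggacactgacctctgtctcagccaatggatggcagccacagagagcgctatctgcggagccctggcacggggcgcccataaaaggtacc
Chac1: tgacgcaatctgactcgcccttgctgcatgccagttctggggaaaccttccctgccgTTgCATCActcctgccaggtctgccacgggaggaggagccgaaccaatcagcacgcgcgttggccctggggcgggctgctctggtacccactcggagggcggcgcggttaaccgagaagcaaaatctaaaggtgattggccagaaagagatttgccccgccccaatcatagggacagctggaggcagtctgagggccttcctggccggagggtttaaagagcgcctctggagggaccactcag
Trib3: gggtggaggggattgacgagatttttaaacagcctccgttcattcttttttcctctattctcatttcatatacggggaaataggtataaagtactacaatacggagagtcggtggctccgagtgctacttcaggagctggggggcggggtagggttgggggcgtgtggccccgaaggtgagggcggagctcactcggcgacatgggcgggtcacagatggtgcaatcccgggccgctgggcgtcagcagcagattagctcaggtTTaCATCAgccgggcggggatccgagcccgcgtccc

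The first comparison asks what 3 days of corticosterone did. At day 3 10 of 13 ATF4-arm genes rose and 0 fell, and 2 of 18 chaperone-arm genes rose and 5 fell. The background is broad, since 23.3% of all 13128 genes were higher and 25.6% lower at an adjusted p under 0.05 (limma, Benjamini-Hochberg), which is what rose and fell mean here. The share of chaperone-arm genes that fell lies near that background. The median log2 fold change, corticosterone over vehicle, was 0.42 in the ATF4 arm and -0.09 in the chaperone arm, beside -0.01 over all genes. Both arms were read in the same libraries and are set side by side by counts and medians, with no test between them. Without replicate 4 the ATF4 arm had 8 higher and 0 lower (median 0.30), and the chaperone arm 1 higher and 8 lower (median -0.13). The shares of all genes printed for each comparison come from the fit with every library. None are given without replicate 4, here or below, so the counts without it have no background beside them.

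**Figure D1:**
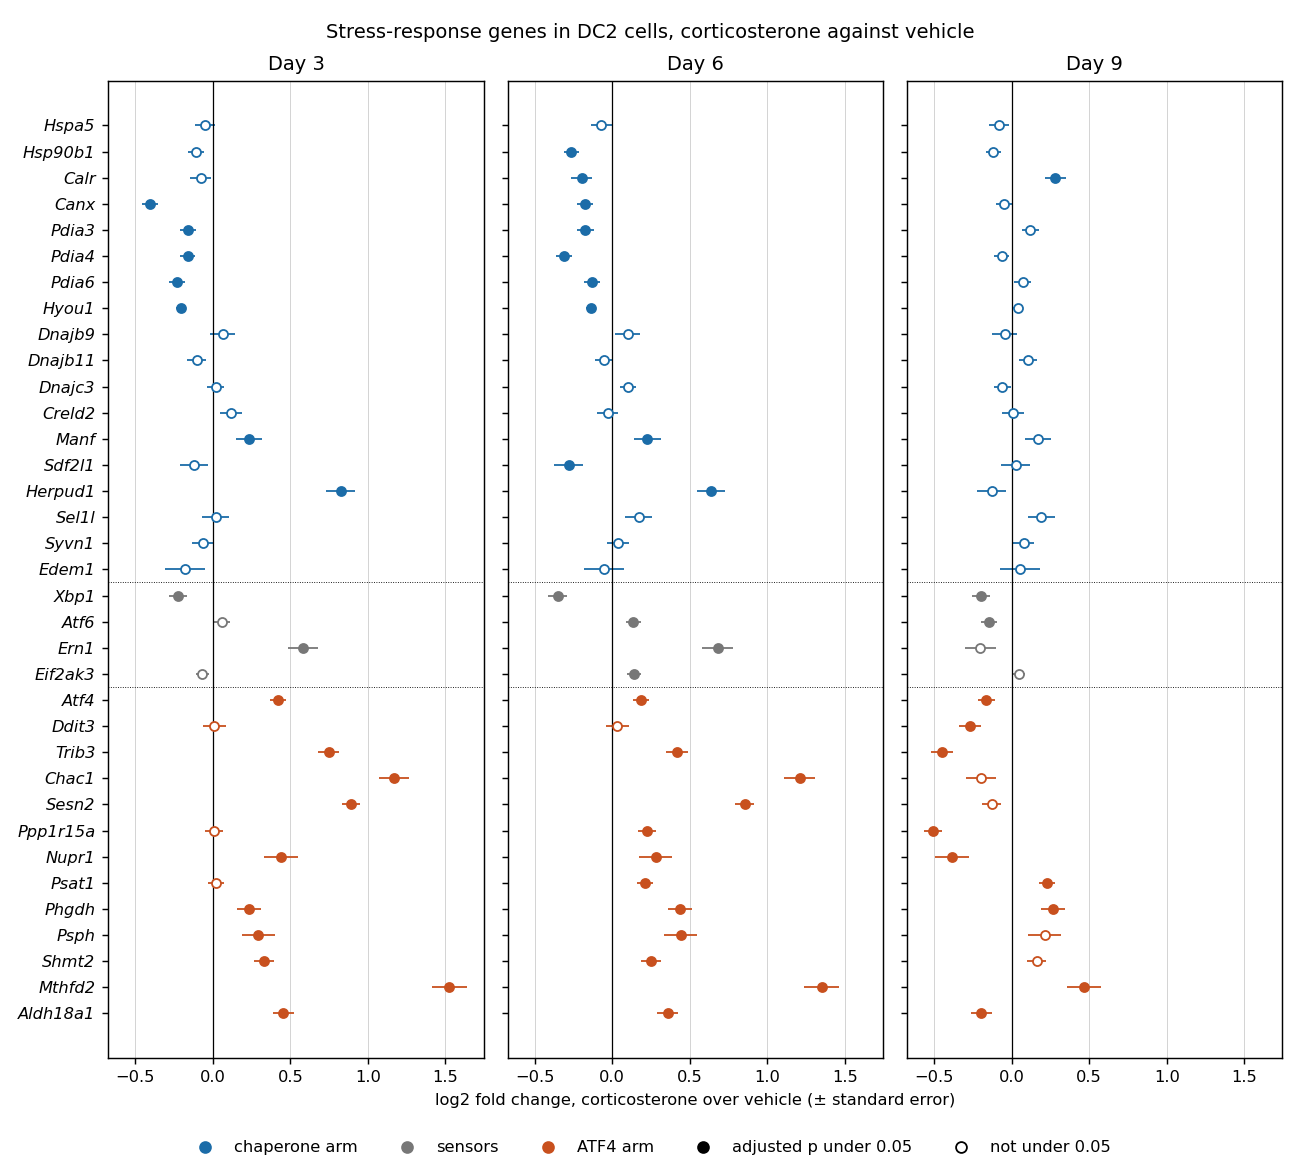
Log2 fold change, corticosterone over vehicle, of all 35 genes at days 3, 6 and 9 (horizontal axis; bars, standard error; 4 libraries per group; filled points, adjusted p under 0.05 by limma). ATF4-arm genes (orange) lie right of 0 at days 3 and 6, up to 1.52 for Mthfd2 at day 3, and at day 9 range from -0.51 for Ppp1r15a to 0.47 for Mthfd2. Chaperone-arm genes (blue) stay between -0.40 and 0.28 apart from Herpud1, at 0.82 and 0.64 at days 3 and 6.

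Hspa5 encodes BiP, the main Hsp70 chaperone of the endoplasmic reticulum and the usual marker of its stress. At day 3 its level was 8.70, 8.97, 8.68 and 8.80 log2 CPM in corticosterone libraries (replicates 1, 4, 5 and 6), against 8.77, 8.78, 8.84 and 8.96 in vehicle libraries (replicates 3 to 6). The ranges overlapped, replicate 4 being the highest corticosterone library, and the log2 fold change was -0.05 ± 0.07 (SE, adjusted p = 0.554; -0.11 without replicate 4, adjusted p = 0.144). The genes that fell were Canx, Pdia3, Pdia4, Pdia6 and Hyou1. Canx encodes calnexin, the membrane lectin that holds new glycoproteins, and its level was 8.80, 8.48, 8.82 and 8.77 in corticosterone libraries, against 9.10, 9.11, 9.13 and 9.15 in vehicle libraries. Every corticosterone library lay below every vehicle library, replicate 4 lowest of all, and the log2 fold change was -0.40 ± 0.05 (adjusted p = 4.27e-07; -0.33 without replicate 4). Hyou1, a large Hsp70-like chaperone, was at 6.93, 6.83, 6.87 and 6.89 in corticosterone libraries, against 7.08, 7.12, 7.04 and 7.08 in vehicle libraries. These groups did not overlap either, and the log2 fold change was -0.20 ± 0.03 (adjusted p = 9.4e-06; -0.19 without replicate 4). The protein disulfide isomerases Pdia3, Pdia4 and Pdia6 had log2 fold changes of -0.16, -0.16 and -0.23, with overlapping libraries, and lost the call when the day 3 libraries were fitted alone (adjusted p = 0.151, 0.092 and 0.0518). Without replicate 4 these became -0.23, -0.21 and -0.31, and Hsp90b1 (-0.15), Dnajb11 (-0.20) and Sdf2l1 (-0.23) also fell.

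Manf, a secreted stress-induced factor, rose by a log2 fold change of 0.23 ± 0.09 (adjusted p = 0.0266), a call lost without replicate 4 (0.10, adjusted p = 0.17). Herpud1, a membrane protein of the degradation complex, was the other riser and stood far from the rest of its arm. Its level was 6.96, 6.87, 7.0 and 6.88 in corticosterone libraries, against 6.04, 6.28, 5.86 and 6.23 in vehicle libraries. The groups lay well apart, with a log2 fold change of 0.82 ± 0.09, or 1.77-fold (adjusted p = 2.93e-08), and 0.84 without replicate 4. Its partners in degradation, Sel1l and Syvn1, which form the ubiquitin ligase, and Edem1, which picks out glycoproteins, had log2 fold changes of 0.02, -0.06 and -0.18 and did not pass the test (-0.02, -0.09 and -0.09 without replicate 4).

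Among the sensors Xbp1 fell and Ern1 rose. Xbp1 was at 4.56, 4.66, 4.71 and 4.59 in corticosterone libraries, against 4.82, 4.74, 4.91 and 4.95 in vehicle libraries, without overlap (log2 fold change -0.22 ± 0.06, adjusted p = 0.00293; -0.23 without replicate 4). Ern1, encoding IRE1, was at 6.73, 6.07, 6.64 and 6.76 in corticosterone libraries, against 6.03, 5.95, 5.90 and 6.00 in vehicle libraries. Replicate 4 came closest to vehicle, the groups did not overlap, and the log2 fold change was 0.58 ± 0.10 (adjusted p = 2.17e-05; 0.74 without replicate 4). Eif2ak3 and Atf6 had log2 fold changes of -0.07 and 0.06 that did not pass the test, and without replicate 4 Atf6 passed it (0.13, adjusted p = 0.00313) and Eif2ak3 had -0.03.

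**Figure D2:**
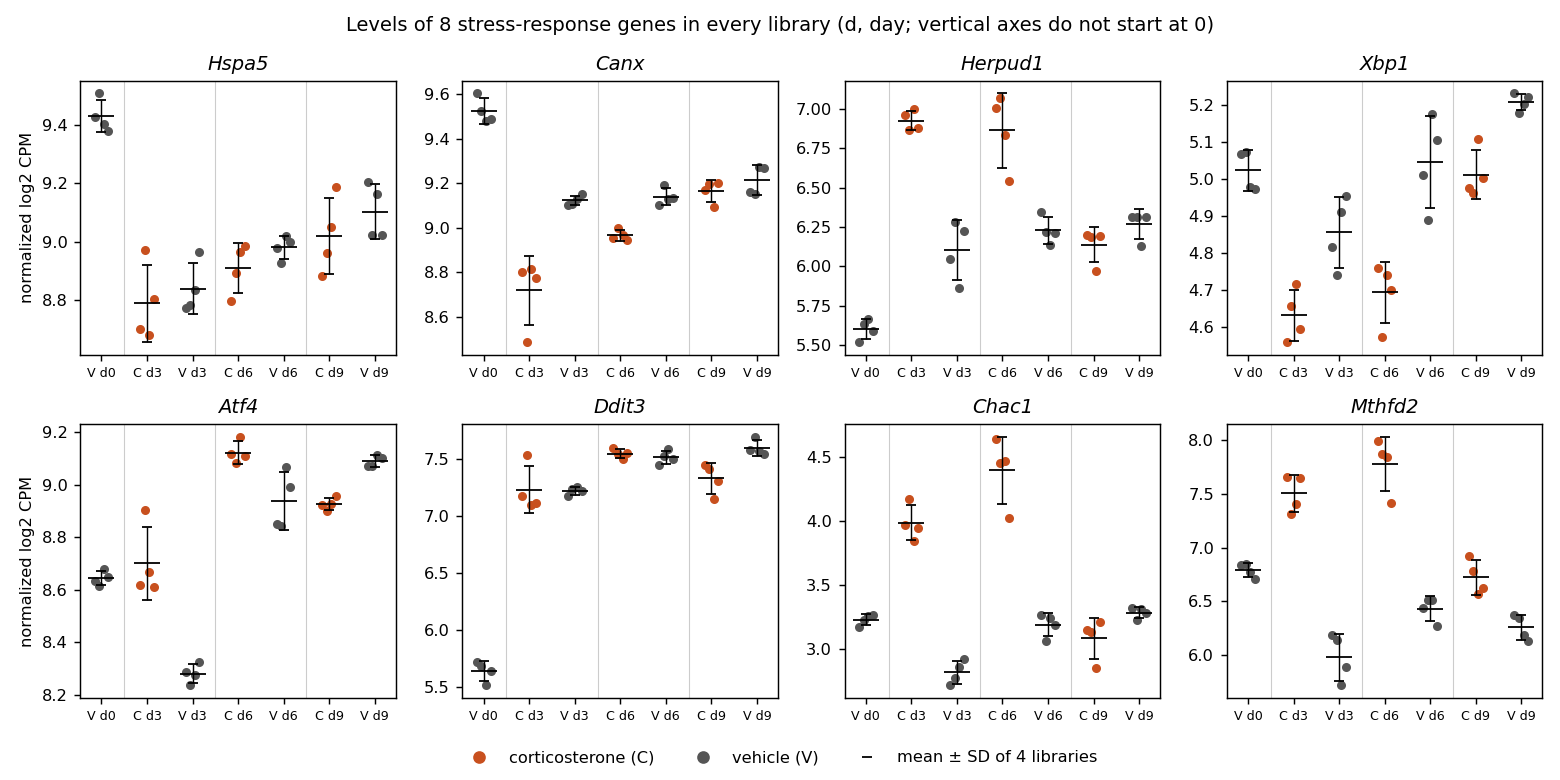
Normalized log2 CPM of 8 genes in each of 28 libraries (vertical axis, not from 0; corticosterone left of vehicle at each day; bars, mean ± SD of 4 libraries). Hspa5 libraries overlap between treatments at every day, Herpud1, Atf4, Chac1 and Mthfd2 libraries are separate at days 3 and 6, and Ddit3 differs mainly between day 0 and later days, with means of 5.64 log2 CPM at day 0 and 7.23 in both groups at day 3.

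In the ATF4 arm 5 of 7 regulators and 5 of 6 enzymes rose at day 3. Atf4 itself was at 8.62, 8.91, 8.67 and 8.61 in corticosterone libraries, against 8.29, 8.24, 8.28 and 8.32 in vehicle libraries. The groups were apart, replicate 4 highest, with a log2 fold change of 0.42 ± 0.05 (adjusted p = 2.03e-07), and 0.35 without that library. Sesn2 encodes sestrin 2, a leucine-binding brake on mTORC1, and was at 6.06, 6.16, 6.11 and 6.08 in corticosterone libraries, against 5.10, 5.21, 5.24 and 5.28 in vehicle libraries. The gap between the groups was wider than the range of either group (log2 fold change 0.89 ± 0.06, 1.86-fold, adjusted p = 3.21e-12; 0.87 without replicate 4). Chac1, an enzyme that degrades glutathione, was at 3.97, 4.18, 3.85 and 3.95 in corticosterone libraries, against 2.72, 2.78, 2.86 and 2.93 in vehicle libraries. It too separated the groups without overlap, with a log2 fold change of 1.17 ± 0.10 or 2.25-fold (adjusted p = 1.89e-10; 1.10 without replicate 4). Trib3, a pseudokinase that curbs AKT and ATF4, and Nupr1, a small stress-induced chromatin protein, rose by 0.75 and 0.44 on the log2 scale. Without replicate 4 the value was 0.67 for Trib3 and 0.28 for Nupr1 (adjusted p = 0.00681).

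Ddit3 and Ppp1r15a were the regulators that did not pass the test. Ddit3 encodes CHOP, the factor linked to cell death in prolonged stress, and was at 7.18, 7.54, 7.10 and 7.12 in corticosterone libraries, against 7.18, 7.24, 7.26 and 7.22 in vehicle libraries. Replicate 4 lay above every vehicle library and the other 3 lay at or below the vehicle mean of 7.23, and the log2 fold change was 0.01 ± 0.07 (adjusted p = 0.935; -0.09 without that library, adjusted p = 0.179). Ppp1r15a, encoding GADD34, which directs dephosphorylation of eIF2alpha, had a log2 fold change of 0.01 ± 0.06 (adjusted p = 0.944; -0.04 without replicate 4).

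Among the enzymes Mthfd2, the mitochondrial one-carbon dehydrogenase, moved furthest. It was at 7.65, 7.32, 7.41 and 7.65 in corticosterone libraries, against 6.18, 6.14, 5.72 and 5.89 in vehicle libraries. The groups lay more than a whole log2 unit apart, with a log2 fold change of 1.52 ± 0.11 or 2.88-fold (adjusted p = 1.41e-11; 1.59 without replicate 4). Aldh18a1, which starts proline synthesis, rose by 0.46 ± 0.07 and Shmt2, the mitochondrial serine hydroxymethyltransferase, by 0.33 ± 0.06 on the log2 scale (0.43 and 0.30 without replicate 4). The serine synthesis enzymes Phgdh and Psph had log2 fold changes of 0.23 and 0.29 and lost the call without replicate 4 (0.13 and 0.20, adjusted p = 0.095 and 0.126), and Psat1, between them in the pathway, had 0.02 ± 0.05 (adjusted p = 0.768; -0.06 without replicate 4).

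Further genes of each pathway, listed by function with earlier results of these data known, were counted beside the members. Of 41 measured of 43 further ATF4 pathway genes, 27 rose and 7 fell at day 3, with a median log2 fold change of 0.26. Of 38 measured of 39 further proteostasis genes 9 rose and 14 fell, with a median of -0.07. Of all genes 23.3% were higher and 25.6% lower, and the share of proteostasis genes that rose lies near that background. Without replicate 4 the counts were 25 higher and 7 lower (median 0.29) for the ATF4 pathway and 7 higher and 13 lower (median -0.09) for proteostasis. Asns, asparagine synthetase, averaged 6.70 ± 0.09 log2 CPM in corticosterone and 6.02 ± 0.04 in vehicle libraries (SD, n = 4 each), and rose by 0.67 on the log2 scale (limma adjusted p = 8.74e-12). Atf5, a bZIP factor translated under the same control as ATF4, rose by 1.11. Mthfd1l, another mitochondrial one-carbon enzyme, fell by 0.64, opposite to Mthfd2, and Stc2, a secreted glycoprotein, fell by 0.34. On the proteostasis side Spcs3 of the signal peptidase and Os9, a lectin of degradation, rose by 0.39 and 0.47, while Txndc5, a disulfide isomerase, and Vcp, the ATPase that pulls proteins from the membrane, fell by 0.41 and 0.32. Without replicate 4 these 8 genes had values from -0.63 for Mthfd1l to 1.02 for Atf5, each in the same direction and past the test.

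The second comparison asks what was left 3 days after corticosterone was removed. At day 6 the ATF4 arm was still higher, with 12 of 13 genes risen and 0 fallen (median log2 fold change 0.36), against 22.9% of all genes higher and 24.3% lower. The chaperone arm had 2 genes risen and 8 fallen (median -0.06, beside 0.00 over all genes; among the 14 folding factors alone, 1 rose, 8 fell and the median was -0.13). Hspa5 was at 8.80, 8.89, 8.96 and 8.99 log2 CPM in corticosterone libraries (replicates 1, 3, 5 and 6), against 8.98, 8.93, 9.02 and 9.00 in vehicle libraries. The groups overlapped, and the log2 fold change was -0.07 ± 0.07 (adjusted p = 0.403).

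Hsp90b1, encoding GRP94, the Hsp90 of the endoplasmic reticulum, was at 9.55, 9.59, 9.66 and 9.6 in corticosterone libraries, against 9.90, 9.89, 9.87 and 9.81 in vehicle libraries at day 6. Pdia4 was at 6.13, 6.23, 6.15 and 6.25 in corticosterone libraries, against 6.56, 6.52, 6.48 and 6.44 in vehicle libraries. Both genes were below vehicle in every library, with log2 fold changes of -0.26 ± 0.05 and -0.31 ± 0.05 (adjusted p = 7.93e-05 and 1.29e-05). Calr, Canx, Pdia3, Pdia6, Hyou1 and Sdf2l1 fell by 0.13 to 0.28 on the log2 scale, all without overlap between groups. Overlap was not counted over all genes at any day, so lack of overlap describes these libraries and has no background. Calr is the soluble partner of calnexin, and Sdf2l1 works with the DnaJ protein Dnajb11. Leaving out single libraries ended the calls of Calr, Pdia6 and Sdf2l1, with adjusted p up to 0.056, 0.142 and 0.0711. With the replicate block, a term for the replicate number, the Pdia6 call was also lost (-0.09, adjusted p = 0.17), which left 7 chaperone-arm genes lower.

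Herpud1 was again above vehicle at day 6. It was at 7.01, 7.07, 6.83 and 6.54 in corticosterone libraries, against 6.34, 6.22, 6.13 and 6.21 in vehicle libraries. The groups did not overlap, replicate 6 being the lowest of the corticosterone libraries, and the log2 fold change was 0.64 ± 0.09 or 1.55-fold (adjusted p = 1.84e-06). Manf rose by 0.23 ± 0.09 (adjusted p = 0.0317), a call that leaving out single libraries ended (adjusted p up to 0.107).

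Each of the 4 sensors passed the test at day 6, and Xbp1 again stood apart in direction. Xbp1 was at 4.76, 4.57, 4.74 and 4.70 in corticosterone libraries, against 5.01, 4.89, 5.17 and 5.11 in vehicle libraries, a log2 fold change of -0.35 ± 0.06 (adjusted p = 2.09e-05) without overlap. Ern1 rose by 0.68 ± 0.10, Eif2ak3 by 0.14 ± 0.04 and Atf6 by 0.14 ± 0.05 on the log2 scale, each above vehicle in every library. The Atf6 call was lost without single libraries (adjusted p up to 0.0974) and with the replicate block (0.10, adjusted p = 0.0989).

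Atf4 was at 9.12, 9.08, 9.18 and 9.11 in corticosterone libraries at day 6, against 8.85, 8.84, 9.07 and 8.99 in vehicle libraries. The gap between the groups was narrow, and the log2 fold change was 0.18 ± 0.05 (adjusted p = 0.00471). Sesn2 was at 6.34, 6.25, 6.35 and 6.03 in corticosterone libraries, against 5.30, 5.37, 5.50 and 5.39 in vehicle libraries (log2 fold change 0.85 ± 0.06, adjusted p = 6.53e-12). Chac1 was at 4.64, 4.46, 4.47 and 4.03 in corticosterone libraries, against 3.27, 3.07, 3.25 and 3.19 in vehicle libraries (1.21 ± 0.10, 2.31-fold, adjusted p = 8.62e-11). For both genes corticosterone replicate 6 was the lowest of its group and still above every vehicle library. Trib3, Ppp1r15a and Nupr1 rose by 0.42, 0.23 and 0.28, and the Nupr1 call was lost without single libraries (adjusted p up to 0.13). Ddit3 was at 7.60, 7.55, 7.50 and 7.56 in corticosterone libraries, against 7.45, 7.53, 7.59 and 7.50 in vehicle libraries, with overlap and a log2 fold change of 0.03 ± 0.07 (adjusted p = 0.746).

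All 6 enzymes rose at day 6. Mthfd2 was at 7.99, 7.88, 7.84 and 7.42 in corticosterone libraries, against 6.44, 6.52, 6.51 and 6.27 in vehicle libraries. The groups were far apart (log2 fold change 1.35 ± 0.11, 2.55-fold, adjusted p = 1.2e-10). Phgdh and Psph rose by 0.44 each, Aldh18a1 by 0.36, Shmt2 by 0.25 and Psat1 by 0.21 on the log2 scale, and each of these had every corticosterone library above every vehicle library.

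Of the 41 further ATF4 pathway genes 25 rose and 2 fell at day 6 (median 0.28). Of the 38 further proteostasis genes 10 rose and 10 fell (median -0.05). Both proteostasis counts lie near the background of 22.9% of all genes higher and 24.3% lower. Asns rose by 0.80 and Wars, the tryptophan tRNA ligase, by 0.57, while Mthfd1l fell by 1.27 and Vldlr, a lipoprotein receptor, by 0.57. Spcs3 rose by 0.62 and Wfs1, a membrane protein that restrains stress signalling, by 0.59. P4hb, an abundant disulfide isomerase, fell by 0.64, and Ero1a, the oxidase that recharges it, fell by 1.38 ± 0.14 (limma adjusted p = 7.47e-09). Ero1a averaged 5.78 ± 0.18 log2 CPM in corticosterone and 7.16 ± 0.20 in vehicle libraries (SD, n = 4 each), and its vehicle mean at day 3 was 5.54 ± 0.11.

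The third comparison asks what remained after 6 days of recovery. At day 9 the ATF4 arm was split by role: 5 of 7 regulators fell and 0 rose (median log2 fold change -0.27), while 3 of 6 enzymes rose and 1 fell (median 0.22). Over the arm this gave 3 higher and 6 lower (median -0.16), against 14.1% of all genes higher and 14.4% lower. In the chaperone arm 1 of 18 genes rose and 0 fell, with a median of 0.04 beside 0.00 over all genes. Fitting the day 9 libraries alone, in place of all 7 groups, gave 4 higher and 1 lower in the chaperone arm. The share of all genes under that fit is not given here.

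Calr was the chaperone gene that rose at day 9. It was at 9.11, 9.07, 8.92 and 9.07 log2 CPM in corticosterone libraries (replicates 3 to 6, as in vehicle), against 8.82, 8.88, 8.81 and 8.55 in vehicle libraries. The groups were apart by a small gap, with a log2 fold change of 0.28 ± 0.07 (adjusted p = 0.00258), opposite in sign to its day 6 value of -0.20. Hsp90b1 was at 9.79, 9.84, 9.88 and 9.84 in corticosterone libraries, against 9.98, 9.95, 9.97 and 9.93 in vehicle libraries. Pdia3 was at 8.43, 8.40, 8.46 and 8.47 in corticosterone libraries, against 8.35, 8.32, 8.36 and 8.27 in vehicle libraries. Neither gene overlapped between groups, yet their log2 fold changes, -0.12 ± 0.05 and 0.12 ± 0.05, did not pass the test (adjusted p = 0.0783 and 0.104). Hspa5 was at 8.88, 8.96, 9.05 and 9.19 in corticosterone libraries, against 9.20, 9.02, 9.16 and 9.02 in vehicle libraries, and overlapped (-0.08 ± 0.07, adjusted p = 0.383). Herpud1, with -0.13 ± 0.09, no longer passed the test (adjusted p = 0.315).

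Xbp1 remained lower at day 9. It was at 4.98, 4.96, 5.11 and 5.00 in corticosterone libraries, against 5.23, 5.18, 5.20 and 5.22 in vehicle libraries. The vehicle libraries were tightly grouped above all the corticosterone ones, and the log2 fold change was -0.20 ± 0.06 (adjusted p = 0.0146). Atf6 fell by 0.15 ± 0.05, a call lost without single libraries (adjusted p up to 0.0935), and Ern1 had a log2 fold change of -0.20 ± 0.10 that did not pass the test (adjusted p = 0.134).

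Atf4 was at 8.92, 8.90, 8.93 and 8.96 in corticosterone libraries at day 9, against 9.07, 9.07, 9.12 and 9.10 in vehicle libraries. It was now below vehicle in every library (-0.16 ± 0.05, adjusted p = 0.0204), although leaving out single libraries raised the adjusted p to at most 0.0525. Ppp1r15a was at 5.82, 5.85, 5.86 and 5.87 in corticosterone libraries, against 6.4, 6.3, 6.49 and 6.24 in vehicle libraries. Trib3 was at 5.69, 5.51, 5.63 and 5.59 in corticosterone libraries, against 6.03, 5.99, 6.11 and 6.09 in vehicle libraries. Both genes lay clearly below vehicle, with log2 fold changes of -0.51 ± 0.06 and -0.45 ± 0.07 (adjusted p = 2.41e-07 and 1.74e-05). Ddit3 was at 7.45, 7.42, 7.15 and 7.31 in corticosterone libraries, against 7.58, 7.70, 7.57 and 7.55 in vehicle libraries, and fell by 0.27 ± 0.07 without overlap (adjusted p = 0.00701). Nupr1 fell by 0.38 ± 0.11, while Chac1 and Sesn2 had log2 fold changes of -0.20 ± 0.10 and -0.13 ± 0.06 that did not pass the test (adjusted p = 0.137 and 0.118).

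Psat1 was at 8.27, 8.31, 8.39 and 8.35 in corticosterone libraries at day 9, against 8.13, 8.08, 8.15 and 8.05 in vehicle libraries. It rose by 0.23 ± 0.05 without overlap (adjusted p = 0.00159). Mthfd2 was at 6.93, 6.79, 6.57 and 6.62 in corticosterone libraries, against 6.37, 6.34, 6.19 and 6.13 in vehicle libraries, and rose by 0.47 ± 0.11 or 1.38-fold (adjusted p = 0.00233). Phgdh rose by 0.27 ± 0.08 (adjusted p = 0.0102), and these 3 enzymes were above vehicle in every library. Aldh18a1 fell by 0.20 ± 0.07, a call lost without single libraries (adjusted p up to 0.124).

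Of the 41 further ATF4 pathway genes 12 rose and 8 fell at day 9 (median 0.08). Of the 38 further proteostasis genes 9 rose and 2 fell (median 0.00), beside 14.1% of all genes higher and 14.4% lower. Asns and Gars, the glycine tRNA ligase, rose by 0.29 and 0.32, while Mthfd1l and Vldlr fell by 0.69 and 0.68. Vcp, which had fallen at day 3, rose by 0.42 and Spcs3 by 0.35. Of the proteostasis genes Ero1a fell by 2.21 ± 0.14 (limma adjusted p = 8.79e-12) and P4hb fell by 0.58. Ero1a averaged 6.15 ± 0.31 log2 CPM in corticosterone and 8.36 ± 0.14 in vehicle libraries (SD, n = 4 each), and its mean before treatment was 5.61 ± 0.19.

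**Figure D3:**
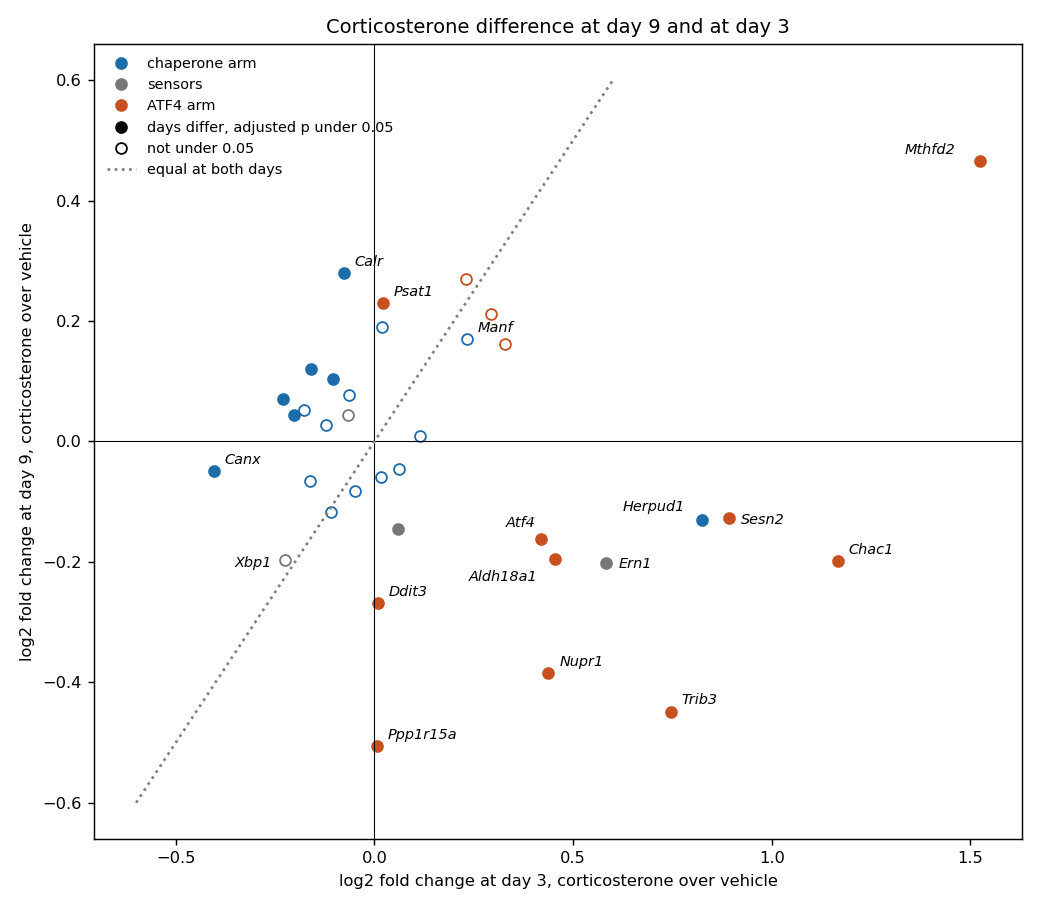
Log2 fold change, corticosterone over vehicle, at day 9 (vertical axis) against day 3 (horizontal axis) for all 35 genes; filled points have an adjusted p under 0.05 for the difference between the days. The whole ATF4 arm is orange. Its regulators with positive values at day 3, such as Trib3 at 0.75, lie below 0 at day 9, with Trib3 at -0.45, and Herpud1 (blue) lies among them at 0.82 and -0.13. Of its enzymes Mthfd2, Phgdh, Psat1, Psph and Shmt2 lie above 0 at day 9 and Aldh18a1 below.

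The change in the corticosterone difference between days was tested directly. The day 3 libraries enter both of these contrasts, so they are not independent of the day 3 results. Between day 6 and day 3 few of the genes passed the test: 0 of 18 chaperone-arm genes passed in either direction, while Atf4 (-0.24 ± 0.07, adjusted p = 0.0436) and Trib3 (-0.33 ± 0.10, adjusted p = 0.0332) had a smaller difference at day 6 and Eif2ak3 (0.21 ± 0.06, adjusted p = 0.0341) a larger one. All 3 calls were lost when the 4 groups were fitted alone (adjusted p = 0.167 for Atf4, 0.119 for Trib3 and 0.114 for Eif2ak3), and without any of 9, 9 and 8 single libraries (adjusted p up to 0.115, 0.0872 and 0.0796). The background was 4.21% of all genes with a more positive difference and 4.9% with a more negative one. Without replicate 4 the ATF4 arm had 3 higher (Ppp1r15a, Psat1 and Phgdh) and 0 lower, and Canx and Pdia6 of the chaperone arm passed with positive values. The share of all genes without replicate 4 is not given.

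Between day 9 and day 3 more of the genes passed the test. In the ATF4 arm 9 of 13 genes had a lower difference at day 9 and 1 a higher one (median -0.58), and in the chaperone arm 6 of 18 had a higher difference and 1 a lower one (median 0.14), against 19.8% of all genes higher and 18.5% lower (median 0.01). The other 11 chaperone-arm genes did not pass, and the arms were not tested against each other. All 7 regulators were among the lower genes, from Chac1 (-1.37 ± 0.14, adjusted p = 1.56e-08), Trib3 (-1.19 ± 0.10, adjusted p = 3.58e-10) and Sesn2 (-1.02 ± 0.09, adjusted p = 5.62e-10) to Ddit3 (-0.28 ± 0.10, adjusted p = 0.0369). The Ddit3 call was lost without any of 6 single libraries (adjusted p up to 0.0985). Replicate 4 was among these (-0.17, adjusted p = 0.0724), and leaving it out left 8 lower in the arm. Quantile normalization (adjusted p = 0.0572) and fitting the 4 groups alone (adjusted p = 0.0925) also ended the Ddit3 call. Of the enzymes Mthfd2 (-1.06 ± 0.16) and Aldh18a1 (-0.65 ± 0.09) had a lower difference, Psat1 (0.21 ± 0.07) a higher one, and Phgdh, Psph and Shmt2 did not pass the test (0.04, -0.08 and -0.17). The Psat1 call was lost when the 4 groups were fitted alone (adjusted p = 0.0831) and without any of 5 single libraries (adjusted p up to 0.0723).

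The 6 chaperone-arm genes with a higher difference at day 9 were all folding factors: Calr (0.36 ± 0.10), Canx (0.35 ± 0.07), Pdia6 (0.30 ± 0.08), Pdia3 (0.28 ± 0.08), Hyou1 (0.25 ± 0.05) and Dnajb11 (0.21 ± 0.08). The last, a DnaJ partner of BiP, was at the edge (adjusted p = 0.0495), and its call was lost without any of 13 single libraries (adjusted p up to 0.127) and when the 4 groups were fitted alone (adjusted p = 0.132). Herpud1 was the gene with a lower difference (-0.95 ± 0.13, adjusted p = 1.57e-06), and in this it matched the sensor Ern1 (-0.78 ± 0.14, adjusted p = 6.74e-05) and the ATF4-arm regulators in sign. Hspa5 (-0.03 ± 0.09, adjusted p = 0.817) and Xbp1 (0.03 ± 0.08, adjusted p = 0.828) did not pass the test.

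The vehicle groups show how these genes moved without hormone. From before treatment to day 3 in confluent culture, 11 of 18 chaperone-arm genes fell and 3 rose (median log2 difference, day 3 over day 0, -0.30), and the ATF4 arm split, with 5 regulators risen, 2 fallen and all 6 enzymes fallen (median -0.96 for the enzymes). The background was 36.5% of all genes higher and 32.7% lower, with a median of 0.04. Day 0 libraries were taken before ethanol was added, so time in culture and vehicle cannot be told apart in this contrast, and its day 3 vehicle libraries are also those used for the corticosterone comparison at day 3. The summed fibroblast markers were 60.7 to 65.1 CPM in vehicle libraries at day 3, against 25.6 to 27.7 CPM at day 0, without overlap, and the endothelial ones 1.43 to 2.60 CPM at day 3, against 1.64 to 3.05 CPM at day 0. Their part in these changes was not tested.

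Hspa5 was at 8.77, 8.78, 8.84 and 8.96 log2 CPM in vehicle libraries at day 3, against 9.43, 9.51, 9.4 and 9.38 at day 0. Every day 3 library lay below every day 0 library, and the log2 difference was -0.59 ± 0.07 (adjusted p = 1.09e-08). Hsp90b1, Pdia6, Hyou1, Manf, Edem1, Canx, Pdia4, Pdia3, Calr and Creld2 fell by 0.19 to 0.49 on the log2 scale. The fall depended on the scaling of the libraries: with quantile normalization 7 genes fell and 4 rose, the arm's median was 0.02, Hsp90b1, Calr and Pdia3 turned to 0.06, 0.05 and 0.01, and Canx no longer passed (-0.04). Dnajb9, a DnaJ protein that restrains IRE1, rose by 0.62 ± 0.08, Herpud1 by 0.50 ± 0.09 and Dnajc3, an inhibitor of PERK, by 0.21 ± 0.05.

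Ddit3 rose most in the ATF4 arm over these days. It was at 7.18, 7.24, 7.26 and 7.22 in vehicle libraries at day 3, against 5.72, 5.68, 5.52 and 5.64 at day 0. The groups were far apart, with a log2 difference of 1.58 ± 0.07 or 3.00-fold (adjusted p = 3.65e-16). Ppp1r15a, Sesn2, Nupr1 and Trib3 rose by 0.66, 0.58, 0.44 and 0.43. Atf4 was at 8.29, 8.24, 8.28 and 8.32 at day 3, against 8.63, 8.61, 8.68 and 8.65 at day 0, and fell by 0.36 ± 0.05 (adjusted p = 8.12e-07), a call lost with quantile normalization (-0.07, adjusted p = 0.165). Chac1 fell by 0.41 ± 0.10. Psat1 was at 7.57, 7.54, 7.50 and 7.51 at day 3, against 9.11, 9.19, 9.23 and 9.11 at day 0, and fell by 1.63 ± 0.05 (adjusted p = 2.93e-19). Phgdh, Shmt2, Psph, Mthfd2 and Aldh18a1 fell by 1.21, 1.02, 0.90, 0.81 and 0.69 on the log2 scale.

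The sensors Eif2ak3, Atf6 and Ern1 rose by 0.35, 0.31 and 0.30 from day 0 to day 3 in vehicle, and Xbp1 fell by 0.17, a call lost without 1 of the libraries (adjusted p = 0.0726). Of the 41 further ATF4 pathway genes 9 rose and 23 fell (median -0.25). Of the 38 further proteostasis genes 9 rose and 20 fell (median -0.22), beside 36.5% of all genes higher and 32.7% lower.

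From day 3 to day 6 in vehicle the ATF4 arm rose again, with 12 of 13 genes higher and 0 lower (median 0.45), against 12.8% of all genes higher and 11.2% lower. Trib3 moved furthest, to 5.71, 5.70, 5.95 and 5.84 at day 6, against 4.68, 4.61, 4.65 and 4.82 at day 3, without overlap (1.11 ± 0.07, adjusted p = 5.25e-12). Atf4 rose by 0.66 ± 0.05 (adjusted p = 5.85e-10), Shmt2 by 0.61, Aldh18a1 by 0.58, Psat1 by 0.53 and Ddit3 by 0.29. Psph, at 0.25 ± 0.11, did not pass the test (adjusted p = 0.0988). In the chaperone arm Hsp90b1 (0.16 ± 0.05) and Hyou1 (0.14 ± 0.03) rose and 0 fell (median 0.01), and the sensors Ern1 and Xbp1 rose by 0.30 and 0.19. Leaving out any of 4 single libraries ended the calls of Hsp90b1, Ern1, Xbp1 and, in the ATF4 arm, Sesn2 (adjusted p up to 0.0722, 0.0815, 0.0938 and 0.119), and 2 libraries did so for Phgdh (up to 0.0639). Quantile normalization ended the Hsp90b1 call (0.01), and fitting both groups alone that of Xbp1 (adjusted p = 0.0768). The vehicle day 3 group is shared by this step and the one before it.

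From day 6 to day 9 in vehicle 1 of the 35 genes passed the test, Trib3, which rose by 0.25 ± 0.07 (limma adjusted p = 0.0211), against 4.69% of all genes higher and 3.15% lower. That call was lost without single libraries (adjusted p up to 0.0866).

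**Figure D4:**
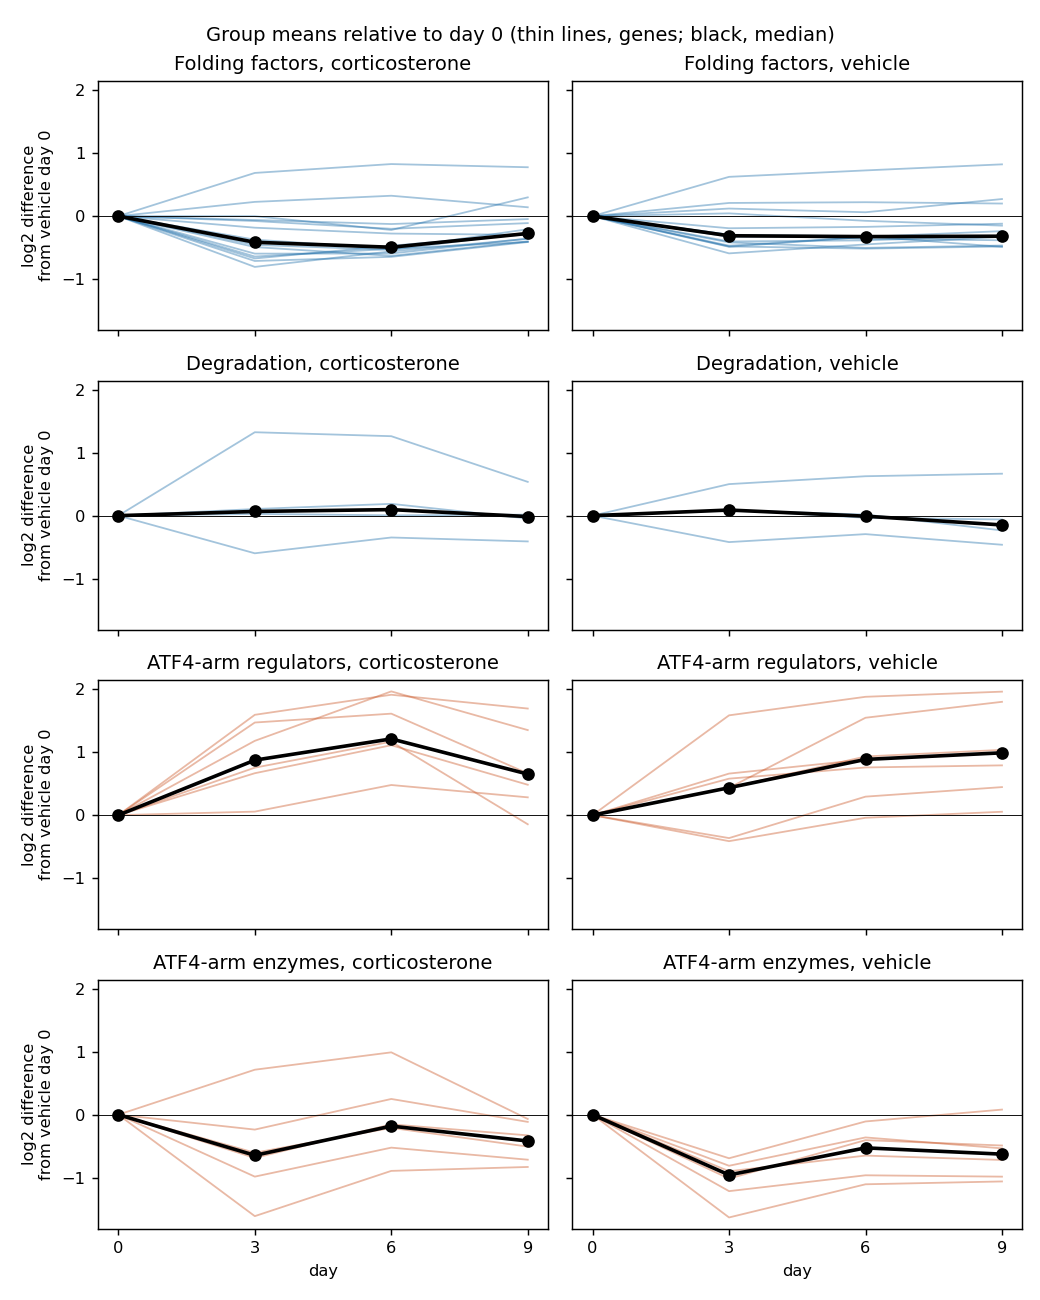
Mean log2 CPM relative to vehicle day 0 by day (horizontal axis) for the genes of 4 roles (thin lines), with their median (black), under corticosterone (left) and vehicle (right); both start from the same 4 day 0 libraries. The median of the 7 regulators was 0.87, 1.21 and 0.65 under corticosterone at days 3, 6 and 9 and 0.44, 0.88 and 0.99 under vehicle, and that of the 6 enzymes was -0.65, -0.18 and -0.42 under corticosterone and -0.96, -0.53 and -0.63 under vehicle.

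Set on one course relative to day 0, most of the 14 folding factors lay below their starting level. Those above it numbered 2, 2 and 3 under corticosterone at days 3, 6 and 9 and 4, 3 and 3 under vehicle. Their median was -0.41, -0.49 and -0.28 under corticosterone at days 3, 6 and 9 and -0.31, -0.32 and -0.32 under vehicle, differences on the log2 scale with no test of their own. How many of all genes lay above day 0 was not counted, so these counts and those of the enzymes have no background. In vehicle the chaperone arm's fall to day 3 depended on the scaling, with a median of 0.02 under quantile normalization. The regulators' median was highest at day 6 under corticosterone and at day 9 under vehicle. Of the 6 enzymes 1 was above its day 0 mean under corticosterone at day 3 (Mthfd2, by 0.71), against 0 under vehicle, and 2 at day 6 (Mthfd2 and Aldh18a1), against 0 under vehicle. At day 9 it was 0 under corticosterone and 1 under vehicle (Aldh18a1, by 0.08).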

How the data were processed

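The deposited table holds log2 CPM, which the authors normalized, per the file name. Tools and a build named in the submitters' processing notes, without their roles, are edgeR 3.40.1, limma 3.54.0, kallisto and mm10. The normalization method and prior count are not given in the sources used here, and folds of low genes depend on them. An entry without a symbol (0.0267 to 0.0698% of CPM) was left out. No pair of libraries was a copy (smallest root mean square log2 difference 0.282). The unmapped value columns numbered 0.

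For 13128 genes, limma 3.58.1 (R 4.3.3) estimated 7 group means from 28 libraries, leaving 21 residual degrees of freedom, with trended moderation, and the fit was checked on simulated data. Calls used p-values adjusted over all genes of a contrast (Benjamini-Hochberg, threshold 0.05). Values are contrasts ± SE. Alternatives were 2 filters, scalings, pseudocounts of 1 and 5, variance settings, the compared groups alone, a replicate block, a threshold of 0.01 and each library left out. Deviations from group means were correlated between same-numbered libraries. In all 3 pairs of corticosterone and vehicle at day 6 r was over 0.1 (0.11 to 0.156). So it was in all 4 pairs of vehicle at days 6 and 3 (0.113 to 0.174). It was also in all 3 pairs of corticosterone at days 6 and 9 (0.129 to 0.209). No other pairing of groups had every pair over 0.1. Differently numbered libraries were not compared, and the labels give only the number. These values therefore cannot show whether the numbers pair the libraries.

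The members and lists were chosen with earlier results of these data known. Library values are given for Hspa5, Xbp1, Atf4 and Ddit3 and, per arm and corticosterone comparison, the 3 members with the smallest p, and 2 genes in each direction are named from the further lists. Library values of Ern1, of Mthfd2 at day 9 and of the vehicle steps were added after the values were seen. Tables were summarised with pandas 2.3.3 in Python 3.11.15.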

Additional observations from a re-analysis of the deposited data

Results flagged for a closer look

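Library values that stood far from the other 3 of their group were found in 13 of 245 groups of 4 tested, and chance alone gives about 1 in 20. Corticosterone day 3 replicate 4 gave 4 of them, low in Canx (8.48 log2 CPM, the others 8.77 to 8.82), Atf6 (7.38, the others 7.64 to 7.68), Ern1 (6.07, the others 6.64 to 6.76) and Eif2ak3 (5.07, the others 5.21 to 5.23), and replicate 5 of that group was low in Syvn1 (6.52). At day 6 corticosterone replicate 5 was high in Manf (5.58) and Sel1l (7.11). At day 9 corticosterone replicate 5 was low in Pdia4 (6.37), Pdia6 (7.06) and Herpud1 (5.97). Vehicle day 9 replicate 5 was low in Herpud1 (6.13), and vehicle day 9 replicate 6 was low in Pdia4 (6.36) and high in Psph (6.04).

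The corticosterone difference itself differed between days in 22 tests by limma's contrast of the days. At day 6 against day 3 it was smaller for Atf4 (-0.24) and Trib3 (-0.33) and larger for Eif2ak3 (0.21). At day 9 against day 3 it was lower for Chac1 (-1.37), Trib3 (-1.19), Mthfd2 (-1.06), Sesn2 (-1.02), Herpud1 (-0.95), Nupr1 (-0.82), Ern1 (-0.78), Aldh18a1 (-0.65), Atf4 (-0.58), Ppp1r15a (-0.51), Ddit3 (-0.28) and Atf6 (-0.20). It was higher for Calr (0.36), Canx (0.35), Pdia6 (0.30), Pdia3 (0.28), Hyou1 (0.25), Dnajb11 (0.21) and Psat1 (0.21). The Atf6 call was lost when the 4 groups were fitted alone (limma adjusted p = 0.0755) and without any of 4 single libraries (adjusted p up to 0.0534).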

How the results depend on the processing

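Of 3360 member values under 12 other settings, 3245 kept direction and call, 64 lost the call, 47 gained one and 4 changed sign; of 2800 with a library left out, 2655 kept both, 124 lost the call, 21 gained one and 0 changed sign. All 4 sign changes came with quantile normalization: Hsp90b1 (0.055), Calr (0.054) and Pdia3 (0.014) for vehicle day 3 against day 0, and Hsp90b1 (0.29) for the corticosterone difference at day 9 against day 3. Of 1040 arm counts and medians, 938 stayed close and 102 moved. The setting without a filter repeated the main fit, because the filter removed 0 genes, so its values were the same by construction. The threshold of 0.01, the compared groups alone and the variance settings other than library weights kept the main fold changes and could not change sign. Shares of all genes are not given for the alternatives, so their counts stand without a background. The causes were not tested, and read depth is unknown.

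For corticosterone against vehicle at day 3, chaperone genes higher were 1 with adjusted p under 0.01, the compared groups alone or library weights, in place of 2, and chaperone genes lower were 2 with the compared groups alone and 8 with library weights, in place of 5; the ATF4 median with weights was 0.33. At day 6, adjusted p under 0.01 left 1 chaperone gene higher and 5 lower, and quantile normalization gave a chaperone median of -0.10. At day 9, chaperone genes higher were 4 with the compared groups alone and 5 with weights, with 1 lower in each. For vehicle day 3 against day 0, the ATF4 median was -0.37 and -0.36 with log2(CPM + 1) and log2(CPM + 5) and -0.57 with quantile normalization, which left 7 chaperone genes lower and a chaperone median of 0.021. For vehicle day 6 against day 3, the ATF4 median with log2(CPM + 5) was 0.39; chaperone genes lower were 2 with the compared groups alone and 1 with weights; chaperone genes higher were 1 with adjusted p under 0.01 or quantile normalization, which gave a chaperone median of -0.023. For vehicle day 9 against day 6, quantile normalization gave a chaperone median of -0.019, weights gave 2 chaperone genes higher, 1 lower and 4 ATF4 genes higher, and adjusted p under 0.01 left 0 ATF4 genes higher. For the corticosterone difference at day 6 against day 3, chaperone genes higher were 1 with log2(CPM + 5), quantile normalization or the stricter filter and 3 with weights; ATF4 genes lower were 1 with log2(CPM + 5) or no intensity trend and 0 with adjusted p under 0.01, the compared groups alone or weights; weights gave 3 ATF4 genes higher and a median of 0.043. At day 9 against day 3, ATF4 genes higher were 0 with adjusted p under 0.01 or the compared groups alone, and the ATF4 median with weights was -0.51.

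With each library left out in turn, at day 3 chaperone genes higher ranged from 1 to 2 and lower from 3 to 8, and the ATF4 median from 0.30 to 0.45. At day 6 chaperone genes higher ranged from 1 to 2 and the chaperone median from -0.11 to -0.059. At day 9 chaperone genes higher ranged from 1 to 2 and the median from -0.0024 to 0.047. For vehicle day 3 against day 0 the chaperone median ranged from -0.31 to -0.28 and the ATF4 median from -0.45 to -0.38. For vehicle day 6 against day 3 chaperone genes higher ranged from 1 to 2, the chaperone median from -0.0087 to 0.019 and the ATF4 median from 0.38 to 0.50. For vehicle day 9 against day 6 chaperone genes lower ranged from 0 to 1 and ATF4 genes higher from 0 to 2. For the corticosterone difference at day 6 against day 3 chaperone genes higher ranged from 0 to 2 and lower from 0 to 1, and ATF4 genes higher from 0 to 3 and lower from 0 to 2; at day 9 against day 3 ATF4 genes higher ranged from 0 to 1.

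Replicate numbers are shared in part between groups. Libraries with the same number deviated together by over 0.1 in 26 of 73 pairs (r from -0.134 to 0.26). Among the comparisons made, every pair did so only for corticosterone against vehicle at day 6 and vehicle day 6 against day 3. Differently numbered libraries were not compared, so these values cannot show pairing. With the replicate block, the calls of Pdia6 and Atf6 at day 6 were lost. No member's call changed for vehicle day 6 against day 3. At day 9, 1 chaperone gene was lower and Shmt2 of the ATF4 arm gained a call. For vehicle day 9 against day 6, 1 chaperone gene was lower and 2 ATF4 genes higher. For the corticosterone difference at day 6 against day 3, 0 ATF4 genes were lower. At day 9 against day 3 Dnajb11 lost its call (0.19, limma adjusted p = 0.062).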
